A study of Homo sapiens with 2 samples.

Results

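The genes described here are those by which breast epithelial cells are sorted into luminal and basal lineages: the steroid hormone receptors ESR1 and PGR, the luminal transcription factors GATA3 and FOXA1, and the keratins KRT19, KRT7, KRT5 and KRT14. They were taken from a list of 10 Ensembl gene IDs, of which 8 had a row among the 18394 genes of the deposited table. The other 2, the luminal keratins KRT8 and KRT18, are not analysed here. The table holds IDs only, and the symbols are those given with the list. Gene expression was measured with 1 Affymetrix array for the parental line MDA-MB-231 and 1 for its variant MDA-MB-231(SA). Both are labelled as breast cancer cell lines, and the labels name no treatment, engineered change or clone. Both were grown in flasks in low-glucose DMEM with inactivated serum, nonessential amino acids, penicillin and streptomycin. MDA-MB-231 is a human line known to lack oestrogen receptor, and the SA variant is known for forming bone metastases in mice. With 1 array per line no difference has a replicate check, and the values are described without a test or a p-value.

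In the breast, luminal cells line the ducts and basal cells lie beneath them. ESR1 encodes the oestrogen receptor, a transcription factor switched on by its hormone, and PGR, the progesterone receptor, is one of its target genes. FOXA1 is a pioneer factor that opens closed chromatin for the oestrogen receptor, and GATA3 is a zinc finger factor that maintains the luminal state. Keratins form intermediate filaments from pairs of a type I and a type II protein. KRT19 (type I) and KRT7 (type II) belong to simple and luminal epithelium, while KRT14 (type I) and KRT5 (type II) are partners in basal cells.

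The 2 lines differed by more than 2-fold in FOXA1 and KRT19, in opposite directions, and in none of the other 6 genes. That is 1 of the 8 genes higher and 1 lower in the variant, where 3.50% of all 18394 genes were higher by this size and 2.50% lower. From the deposited values, FOXA1 was 26.4-fold higher in the SA variant, but its parental value lay in the background range. With that value raised to the 25th percentile or to the median of all values, FOXA1 was 12.1-fold or 4.25-fold higher. KRT19, well above background on both arrays, was 7.06-fold lower in the variant. The receptors ESR1 and PGR, the factor GATA3 and the basal keratins KRT5 and KRT14 were dim on both arrays and differed by at most 1.23-fold (GATA3). KRT7 was above the median of all values in both lines and was 1.39-fold lower in the SA variant.

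All levels are log2 values made with RMA by the authors. The level floor used was the overall median of the 2 arrays, 5.62. Values below the 25th percentile, 4.12, lie in the range where RMA values are usually mostly background. The 75th percentile was 7.63. These percentiles serve to say which values may be background, to choose the genes compared and to form sets of genes by level. They do not order the genes by amount of RNA, because probes differ in brightness. Of the 8 genes, 3 (FOXA1, KRT19 and KRT7) reached the floor on at least 1 array and 5 stayed below it on both. The room for a difference is limited when a gene is below the floor on both arrays, and RMA shrinks the differences of dim genes towards 0.

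**Figure D1:**
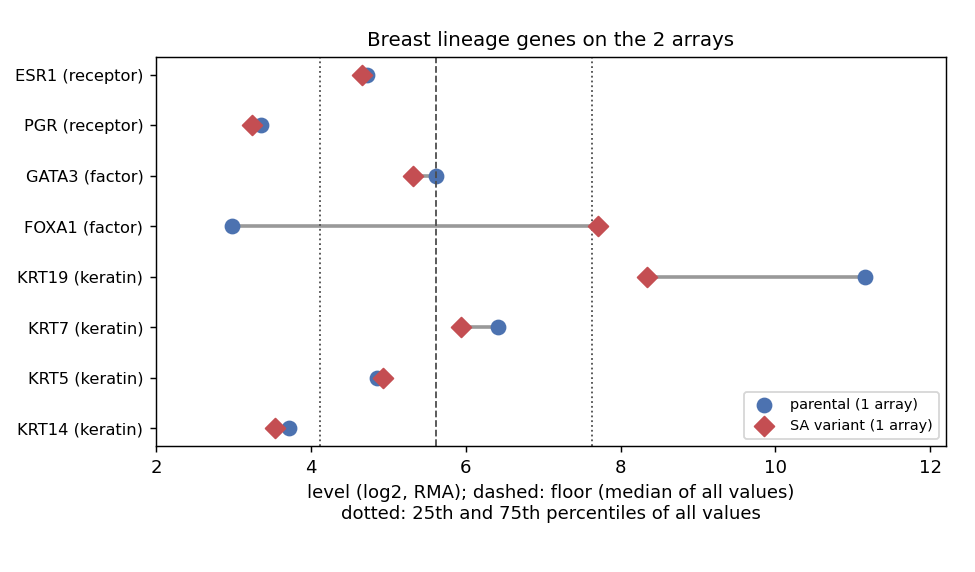
Levels of the 8 breast lineage genes (log2, RMA) on the parental array (circles) and the SA array (diamonds), each from 1 array, with the floor at 5.62 dashed and the 25th and 75th percentiles of all values dotted. FOXA1 goes from 2.98 to 7.71 and KRT19 from 11.2 to 8.34, while the marks of the other 6 genes lie close together.

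The hormone receptors were below the floor in both lines. ESR1 (ENSG00000091831_at) had a level of 4.72 in the parental line and 4.66 in the variant. The difference, variant minus parental, was -0.06. PGR (ENSG00000082175_at) was at 3.35 and 3.25, a difference of -0.11, and both of its levels lay below the 25th percentile. Among all 18394 genes, 85.7% differed by at least as much as ESR1 and 74.8% by at least as much as PGR, in either direction. Neither receptor was brighter on the SA array than on the parental array. A difference between the lines at such levels would be compressed, so an equal amount of receptor RNA was not shown.

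Of the luminal factors, GATA3 was near the floor and FOXA1 crossed the whole middle range of levels. GATA3 (ENSG00000107485_at) was at 5.618 in the parental line, just outside the floor of 5.619, and at 5.32 in the variant. The difference was -0.30, or 1.23-fold lower in the SA variant, and 42.7% of all genes differed by at least as much. Among the 8669 genes that were likewise below the floor on both arrays, 27.5% did. FOXA1 (ENSG00000129514_at) was at 2.98 on the parental array, in the background range, and at 7.71 on the SA array, just above the 75th percentile. The difference of these values was 4.72 on the log2 scale. FOXA1 was thus higher in the SA variant, while for GATA3 no change was shown beyond what many genes had.

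With a parental level in the background range, the size of the FOXA1 difference is uncertain. With the parental level raised to the 25th percentile, the difference was 3.59 (12.1-fold). Raised to the floor, it was 2.09 (4.25-fold). Both values depend only on the SA level of FOXA1, so they are no check of the difference. Any gene at or above the 75th percentile on the SA array would pass the 2-fold size in this way. Of the 4548 genes below the 25th percentile on the parental array, 43 reached the floor on the SA array and 8 reached the 75th percentile. FOXA1 was one of these 8.

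The promoter of FOXA1 is shown because this gene was the one past 2-fold upward in the SA variant. The sequence, from RefSeq on GRCh38.p14, is that of the 250 bases before the annotated start, chr14:37595250-37595499 on the minus strand, 5′ to 3′. Capitals mark a match to the forkhead motif TGTTTGC or TGTTTAC, searched on both strands, which is the kind of motif that FOXA proteins bind.
FOXA1: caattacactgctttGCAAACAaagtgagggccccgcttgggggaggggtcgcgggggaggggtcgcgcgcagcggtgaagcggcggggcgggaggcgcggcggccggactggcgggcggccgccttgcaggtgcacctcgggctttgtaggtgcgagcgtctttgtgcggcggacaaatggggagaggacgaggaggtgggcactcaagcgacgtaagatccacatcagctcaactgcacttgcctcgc
The FOXA1 window held 1 match, GCAAACA, the reverse complement of TGTTTGC, beginning at base 16 of the printed sequence. A match to either motif was found in 6.09% of the 35116 windows of this length in the RefSeq table. The window had a GC content of 67.2% and 26 CpG dinucleotides, against medians of 58.0% and 11 over all windows. Of all windows, 27.3% had at least this GC content and 19.6% at least this many CpG dinucleotides. For ESR1, PGR and KRT5 the table listed 6, 3 and 1 windows, and none held a forkhead match. GATA3 had 6 windows, of which 1 held a match. These matches describe letters, and binding was not measured. KRT19, KRT7 and KRT14 were not matched in the promoter table.

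The luminal keratins differed in how far apart the lines were. KRT19 (ENSG00000171345_at) had a level of 11.2 in the parental line and of 8.34 in the variant. The difference was -2.82, which put the SA level at 14.2% of the parental level. KRT19 was thus above the 75th percentile in both lines, clear of the background range. Of the 4101 genes at or above the 75th percentile on both arrays, 127 (3.10%) were lower in the variant by 2-fold or more. None of the others in this set had a difference as low as that of KRT19. The set leaves out genes that fell below the 75th percentile in the variant. Only a gene with a high parental level, such as KRT19, can fall that far and stay in the set. Among all 18394 genes, 25, KRT19 included, had a difference at or below that of KRT19. From bulk RNA, fewer cells with KRT19 and less KRT19 RNA per cell cannot be told apart.

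KRT7 (ENSG00000135480_at), the type II keratin of simple epithelium, had levels of 6.41 in the parental line and 5.94 in the variant, above the floor in both. The difference was -0.47, in the same direction as KRT19 but within 2-fold, and 24.6% of all genes differed by at least as much. Among the 9725 genes that reached the floor on at least 1 array, 36.4% did. The difference of KRT19 minus that of KRT7 was -2.35 on the log2 scale. KRT8 and KRT18, the other luminal keratins of the list, were not analysed here and could not be set beside KRT19 and KRT7.

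The basal keratins were below the floor in both lines. KRT5 (ENSG00000186081_at) was at 4.85 in the parental line and 4.93 in the variant, so the difference was 0.07. KRT14 (ENSG00000186847_at) was at 3.72 and 3.54, below the 25th percentile on both, with a difference of -0.17. Among all genes, 82.7% differed by at least as much as KRT5 and 61.9% by at least as much as KRT14. KRT14 lies close to KRT19 in the type I keratin cluster, with KRT9 as the 1 protein-coding gene between them in the RefSeq table. Keratins are a family of related sequences with many pseudogenes, and probe sequences were not used here, so signal shared between family members was not tested.

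**Figure D2:**
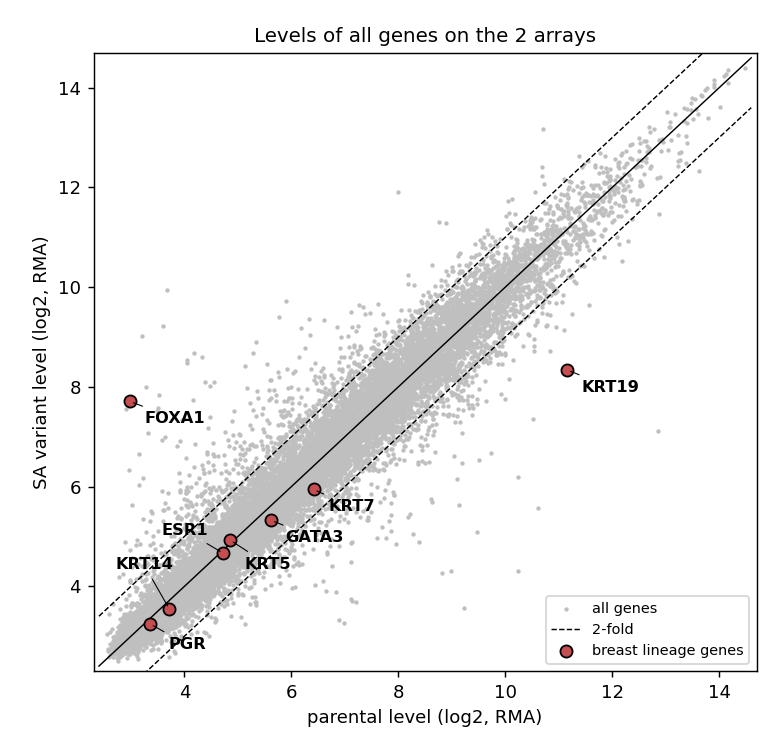
Level of each of the 18394 genes on the SA array (vertical) against the parental array (horizontal), both log2 RMA values from 1 array per line, with the line of equal levels and dashed lines at 2-fold. The 8 breast lineage genes are marked: FOXA1 lies far above the 2-fold band, KRT19 far below it, and the other 6 inside it.

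Read against the whole table, the counts for the 8 genes are small numbers. Of the 3 genes that reached the floor, FOXA1 passed the 2-fold size upward in the variant, KRT19 passed it downward, and KRT7 stayed within it. Among the 9725 genes compared by the same floor, 5.75% passed it upward and 4.17% downward. With 8 genes, 1 gene in each direction says nothing about the list as a group. The 8 genes had a median difference of -0.14, and all genes one of -0.0045. By sign alone 6 were lower in the SA variant and 2, FOXA1 and KRT5, were higher. Of these, ESR1, PGR, GATA3, KRT14 and KRT5 were below the floor on both arrays. Their small differences give no direction, and the signs show no trend of the list. For the 4 keratins the median difference was -0.32. KRT19 and KRT7, the 2 above the floor, had differences of -2.82 and -0.47. Their median, -1.65, is only the midpoint of these values and describes neither gene.

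**Figure D3:**
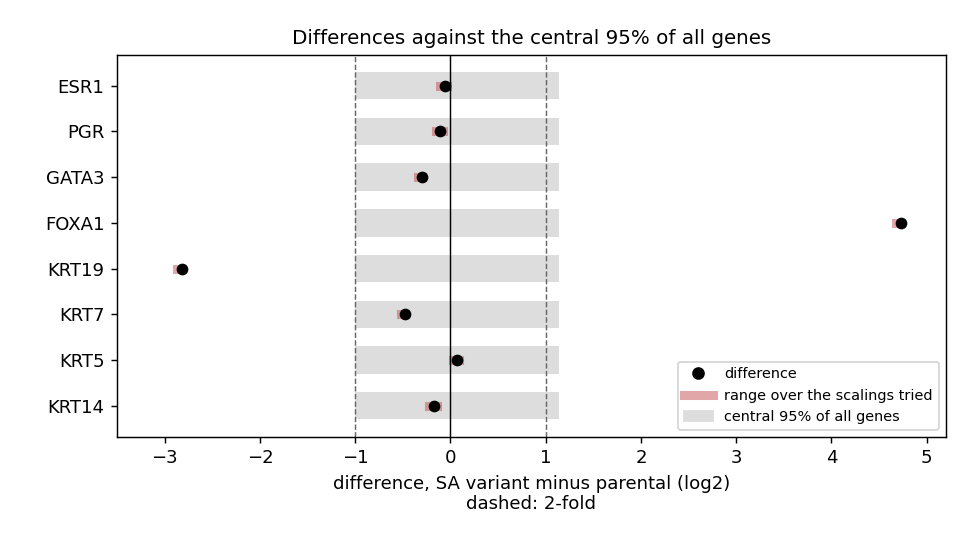
Difference SA variant minus parental (log2) of each of the 8 genes (points), the range over the scalings between arrays that were tried (pale red) and the central 95% of the differences of all 18394 genes (grey, from -0.999 to 1.14). FOXA1 at 4.72 and KRT19 at -2.82 lie outside the grey range, and the other 6 genes lie within it.

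The central 95% of all differences ran from -0.999 to 1.14, and 6 of the 8 genes lay inside it. This range describes genes on 2 arrays and is no measure of replicate error. FOXA1 ranged from 4.68 to 4.73 and KRT19 from -2.87 to -2.82 over the scalings between arrays that were tried.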

How the data were processed

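The authors deposited log2 expression values for 18394 genes on 2 arrays, made with RMA per the submitters' processing notes. RMA subtracts background, gives all arrays 1 distribution of probe values and condenses the probes of a feature into 1 value. The RMA version, array type and probe grouping were not given in the sources used here. A log base of 2 was assumed, since RMA writes log2 values and these ran from 2.50 to 14.5. Each line had 1 array, so the number of arrays limits the precision.

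For each gene of the whole table the parental value was subtracted from that of the SA variant, and a fold is 2 to the power of it. Genes at or above the median of all values on at least 1 array were compared, with a size rule of 2-fold. The genes and lists were chosen with earlier results of these data known. All list members with a row are named. Further lineage genes had been listed by symbol and are not analysed here, since 0 rows of the RefSeq table (GRCh38.p14) carried an Ensembl ID. All 8 symbols were found in it. The rules were tested on simulated data, with noise of a chosen size and differences added only to genes bright on the parental array. That test did not cover differences that start from a dim level, as for FOXA1. The alternatives were other floors, scalings and size rules. Python 3.11.15, pandas 2.3.3 and statsmodels 0.14.6 (lowess, span 0.4) were used.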

Additional observations from a re-analysis of the deposited data

How the results depend on the processing

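No paired analysis was possible because each line had 1 array, and no array could be left out. FOXA1 stayed at least 2-fold higher and KRT19 at least 2-fold lower after centring, trend subtraction and quantile normalization. None of the 8 differences changed sign under these 3 scalings. RMA had already given the arrays 1 distribution of probe values, so the scalings had little to change and are a weak check. When both arrays had to reach the floor, 0 of the 8 genes passed the 2-fold size upward, because FOXA1 was below it on the parental array. The 2 settings that raise the parental level of FOXA1 were chosen after seeing the data and gave 3.59 and 2.09. These values depend only on its SA level. The number of the 8 genes that could be compared was 6 for a floor at the 25th percentile and 8 for none. The median difference of the keratins compared was then -0.47 and -0.32. After quantile normalization 4 of the 8 genes reached the median floor on at least 1 array, against 3 without it. Over all genes, a 75th percentile floor gave 308 higher and 256 lower, and the floor on both arrays gave 358 and 283. A size rule of 1.5-fold gave 1533 and 1150, and one of 3-fold gave 187 and 116. A floor or size rule changes these counts by construction. Signal below the floor limits the values of ESR1, PGR, GATA3, KRT5 and KRT14 on both arrays and of FOXA1 on the parental array. GATA3 was only just below the floor in the parental line.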
